A study of Mus musculus with 8 samples.

Results

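The choroid plexus genes described here are Ttr, Kcne2, Clic6, Folr1, Kl, Aqp1, Enpp2 and Slc4a5, a set of 8 symbols. They were chosen by name, with earlier results of these data known. All probe sets whose platform annotation gives only 1 of these symbols were taken, which gave 12 of 45037 probe sets and 7 of 18193 genes. Enpp2 had none. Expression was measured on oligonucleotide arrays with RNA from the telencephalon of mice with Dlx1/2 mutations, in 4 groups of 2 arrays, numbered replicate 2 and replicate 3 in each group. The groups are basal ganglia (BG) with genotype +/-, BG with genotype -/-, cortex (Ctx) with genotype +/-, and Ctx with genotype -/-. The sources used here state neither age, strain, pooling nor the design of the mutant allele, and no wild-type group was used here. The labels do not say whether a group holds separate animals, and p-values then describe array-to-array spread, which may be technical.

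The choroid plexus is a vascular frond of tissue, covered by a secretory epithelium, that hangs in the ventricles of the brain and makes cerebrospinal fluid. In the telencephalon its epithelium arises at the dorsal midline next to the cortical hem, a signalling centre that secretes Wnt and BMP proteins at the medial edge of the cortex. The epithelium is known for secreting the carrier protein transthyretin and for the channels, transporters and vitamin receptors that move ions, water and nutrients between blood and cerebrospinal fluid. Dlx1 and Dlx2 are homeobox transcription factors of the ventral telencephalon.

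The data are 1 summarised signal per probe set and array on a linear scale with no detection calls, and a low signal is therefore no statement of absence. Pearson correlation across the probe sets tested was 0.971 to 0.983 within groups and 0.905 to 0.976 between groups. Precision is limited by having 2 arrays in each group. Dlx1, a targeted gene, gave 1232 and 1237 in BG +/- against 3.67 and 15.5 in BG -/-, and 138 and 137 in Ctx +/- against 2.42 and 1.74 in Ctx -/-. The position of its probes against the deletion is unknown here. Xist, which is transcribed from the inactive X chromosome, lay between 34.2 and 67.5 in the +/- arrays and between 2340 and 2519 in the -/- arrays, so sex and genotype cannot be told apart. Differences below are in log2(signal + 16), which understates the change of low signals. They were tested with limma over the 31526 probe sets left after the lowest 30% by mean were dropped, and a call is a Benjamini-Hochberg adjusted p under 0.05.

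Among the secreted proteins, Ttr encodes transthyretin, the carrier of thyroxine and retinol-binding protein in cerebrospinal fluid. Its probe set 1454608_x_at was at 11634 and 13605 in Ctx +/-, at 1.11 and 0.701 in Ctx -/-, while BG +/- gave 18.6 and 34.3 and BG -/- gave 9.52 and 15.2. Both Ctx +/- arrays were thus far above the other 6. Probe set 1459737_s_at was at 7965 and 9507 in Ctx +/-, at 15.6 and 11.1 in Ctx -/-, while BG +/- gave 31.4 and 6.46 and BG -/- gave 5.96 and 7.74. Probe set 1455913_x_at was at 7778 and 6007 in Ctx +/-, at 5.96 and 0.292 in Ctx -/-, while BG +/- gave 16.3 and 20.1 and BG -/- gave 1.06 and 1.59. Probe sets with the suffix _x_at or _s_at can share sequence with other transcripts. All 4 Ttr probe sets gave the same picture, with high signals in the Ctx +/- arrays and low ones elsewhere. The fourth, 1451580_a_at, was at 4714 and 5402 in Ctx +/- and between 2.23 and 5.80 in the other 6 arrays.

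In cortex Ttr fell in -/- on each of these probe sets. The change was -9.54 ± 0.21 (SE, log2 scale; limma adjusted p = 1.55e-05) on 1454608_x_at, -8.50 ± 0.19 on 1455913_x_at (limma adjusted p = 1.55e-05), -8.22 ± 0.33 on 1459737_s_at (limma adjusted p = 0.000271) and -8.05 ± 0.13 on 1451580_a_at (limma adjusted p = 4.73e-06). Of the differences of all 31526 probe sets in this comparison, these 4 ranked 1, 2, 3 and 4 by size. The offset of 16 sets how large such a difference can be when the lower signal is near 0. Without Ctx +/- replicate 2, Ctx +/- replicate 3 or any other single array, the 4 changes lay between -9.65 and -7.95 and all passed. Fewer choroid plexus cells in a sample and less of a transcript per cell cannot be told apart in RNA of whole tissue.

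**Figure D1:**
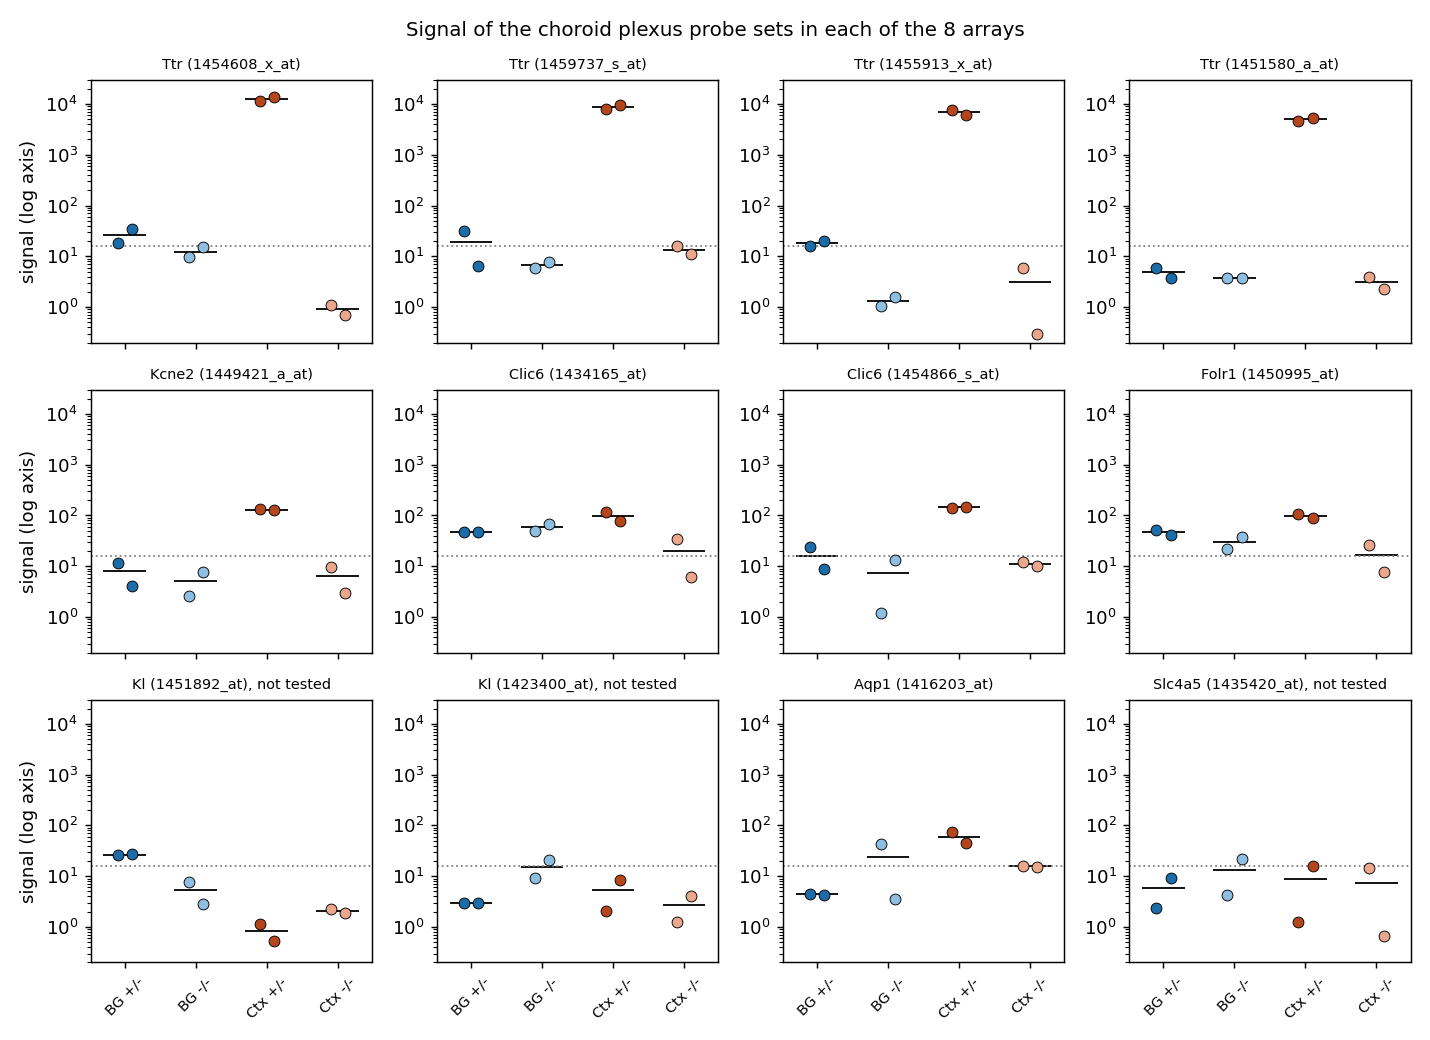
Signal (log axis) of the 12 probe sets of choroid plexus genes in each array, by group, with 2 points per group and a line at their mean. The dotted line is at 16, the offset added before taking log2. The 4 Ttr probe sets lie between 4714 and 13605 in Ctx +/- and at or below 34.3 in the other 6 arrays, and Kcne2 shows the same order at lower signals.

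Kcne2 encodes a single-pass subunit that assembles with voltage-gated potassium channels, including those of the apical membrane of this epithelium. Its 1 probe set was at 135 and 126 in Ctx +/-, at 9.64 and 2.98 in Ctx -/-, while BG +/- gave 11.7 and 4.09 and BG -/- gave 2.63 and 7.74. As for Ttr, both Ctx +/- arrays stood above the other 6, which overlapped one another across groups. In cortex it fell in -/-, with a change of -2.73 ± 0.23 (SE, log2 scale; limma adjusted p = 0.00895). Without Ctx -/- replicate 3 the change was -2.51 and the call was lost. Without either Ctx +/- array, or with offset 1, Kcne2 fell under the filter and had no test in any comparison.

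Kcne2 and Clic6 both lie on chromosome 16, with 5 protein-coding genes between them in the RefSeq gene table of assembly GRCm38.p6. Of the members called in cortex, the RefSeq promoter table of that build held Kcne2, whose sequence is shown because its signal moved with that of Ttr. The 250 bases upstream of its first start, chr16:92292139-92292388 on the plus strand, are given 5′ to 3′.
Kcne2: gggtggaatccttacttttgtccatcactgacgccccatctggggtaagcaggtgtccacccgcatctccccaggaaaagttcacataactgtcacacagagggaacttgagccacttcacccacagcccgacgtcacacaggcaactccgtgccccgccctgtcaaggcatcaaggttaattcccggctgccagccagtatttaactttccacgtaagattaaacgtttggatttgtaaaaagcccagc
They were searched on both strands for TAATCC, the core bound by OTX factors, for TAATTA, a core bound by DLX and other homeodomain factors, and for TGTTTAC, a core bound by FOX factors. None of these was found, so no letters are in capitals. Of 32851 windows of the same length in that table, 6.25% held TAATCC, 4.84% held TAATTA and 3.17% held TGTTTAC. This says only that these letters are not in this window. The windows of Kl, Aqp1 and Slc4a5 and the second window of Kcne2 held none of them either.

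Clic6 encodes a member of the chloride intracellular channel family. Its brighter probe set 1434165_at was at 117 and 76.9 in Ctx +/-, at 34.8 and 6.04 in Ctx -/-, while BG +/- gave 47.3 and 47.0 and BG -/- gave 48.7 and 68.7. On it the Ctx +/- arrays did not overlap with any other group, but Ctx +/- replicate 3 was close to BG -/- replicate 3. Probe set 1454866_s_at was at 143 and 146 in Ctx +/-, at 12.2 and 10.2 in Ctx -/-, while BG +/- gave 23.6 and 8.76 and BG -/- gave 1.21 and 13.5. The cortical change was -2.56 ± 0.30 on 1454866_s_at, which passed (limma adjusted p = 0.0406), and -1.73 ± 0.39 on 1434165_at, which did not (limma adjusted p = 0.247). The call on 1454866_s_at was near the threshold. It was lost without any 1 of the BG +/-, Ctx +/- or Ctx -/- arrays, where the change lay between -2.61 and -2.51. It was also lost with offset 1 (limma adjusted p = 0.331), no filter (0.0725) or a replicate block (0.117).

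Folr1 encodes folate receptor alpha, which carries folate into cerebrospinal fluid. It was at 107 and 90.1 in Ctx +/-, at 25.9 and 7.69 in Ctx -/-, while BG +/- gave 52.4 and 40.7 and BG -/- gave 22.1 and 37.3. The Ctx +/- arrays were the highest and Ctx -/- replicate 3 the lowest. The cortical difference, -1.86 with a 95% interval from -2.56 to -1.15, did not pass over all probe sets (limma adjusted p = 0.111). With an offset of 64 it was -1.01 and passed (limma adjusted p = 0.0106).

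Aqp1 encodes a water channel of the apical membrane. It was at 75.0 and 44.9 in Ctx +/-, at 15.8 and 15.4 in Ctx -/-, while BG +/- gave 4.51 and 4.32 and BG -/- gave 43.7 and 3.60. The 2 BG -/- arrays thus disagreed, with replicate 2 close to the lower Ctx +/- array. The cortical difference, -1.23 with a 95% interval from -2.37 to -0.10, did not pass (limma adjusted p = 0.478).

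The other 3 members gave no test in the set retained for testing. Kl encodes Klotho, a co-receptor for hormone-like fibroblast growth factors. Its probe set 1451892_at gave 25.9 and 26.8 in BG +/-, 7.57 and 2.90 in BG -/-, and was at 1.12 and 0.525 in Ctx +/- and at 2.26 and 1.86 in Ctx -/-, so here BG +/- and not Ctx +/- was the highest group. Without the filter on low signals, 1451892_at differed by -1.004 ± 0.149 between BG -/- and BG +/- (limma adjusted p = 0.0249). Its other probe set, 1423400_at, gave 2.98 and 2.96 in BG +/- against 9.08 and 21.1 in BG -/-, a difference of 0.69 in the opposite direction that did not pass (limma without the filter, adjusted p = 0.166). On that probe set the cortical arrays lay between 1.23 and 8.44. Slc4a5, which encodes a sodium bicarbonate cotransporter, was at 1.23 and 16.1 in Ctx +/-, at 14.2 and 0.666 in Ctx -/-, while BG +/- gave 2.31 and 9.14 and BG -/- gave 4.27 and 22.2. Arrays of 1 group differed here as much as arrays of different groups. Enpp2, which encodes autotaxin, the enzyme that makes lysophosphatidic acid, was not analysed here.

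Counted over probe sets, 6 of the 9 tested fell in cortex with genotype -/-, none rose and 3 did not pass, where 0.178% of all probe sets tested were called lower and 0.0476% higher. The count was 4 without Ctx +/- replicate 2, Ctx +/- replicate 3 or Ctx -/- replicate 3. The median difference was -2.73 over the 9 and -2.21 over all 12 probe sets of the members, against -0.01 over all probe sets tested. Of the 9 probe sets, 4 are of Ttr. By the brightest probe set of each gene, 2 of 5 genes tested fell, Ttr and Kcne2, where 0.183% of genes were called lower. The median over these 5 genes was -1.86, against -0.03 over all genes tested. Of the 9 probe sets, 7 passed the filter on low signals only through their signals in Ctx +/-, all except Folr1 and Clic6 1434165_at. These 7 had to differ between groups, and the counts and medians are a description. Of the 12, the cortical arrays of the genotypes did not overlap for 9 with -/- lower and for Kl 1451892_at with -/- higher, where 20.4% and 17.3% of all probe sets without the filter did so.

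The second comparison asked whether the same genes differ with genotype in basal ganglia. There 1 of 9 probe sets fell in -/-, Ttr 1455913_x_at by 0.98 ± 0.19 (limma adjusted p = 0.0284), none rose and 8 did not pass, where 2.23% of all probe sets tested were called lower and 7.5% higher. The signals behind that call were 16.3 and 20.1 in BG +/- and 1.06 and 1.59 in BG -/-, all near or below the offset. It did not pass without the filter (limma adjusted p = 0.0512), with offset 1 (0.0681), offset 64 (0.114) or quantile normalization (0.051). The call was lost without BG +/- replicate 2 or 3 (limma adjusted p = 0.0949 and 0.116) and without BG -/- replicate 2 or 3 (0.134 and 0.123). The other Ttr probe sets were at -0.56 ± 0.21, -0.51 ± 0.33 and -0.08 ± 0.13, with limma adjusted p of 0.137, 0.354 and 0.746. Averaged over its 4 probe sets, Ttr was at -0.53 ± 0.12 in BG (limma adjusted p = 0.0384) and at -8.58 ± 0.12 in Ctx (limma adjusted p = 4.33e-07). The BG signals of the 4 Ttr probe sets were all at or below 34.3, and most were below the offset of 16. Kcne2 was at -0.17 with a 95% interval from -0.70 to 0.37, Folr1 at -0.47 from -1.17 to 0.24, and Aqp1 at 0.74 from -0.39 to 1.88.

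**Figure D2:**
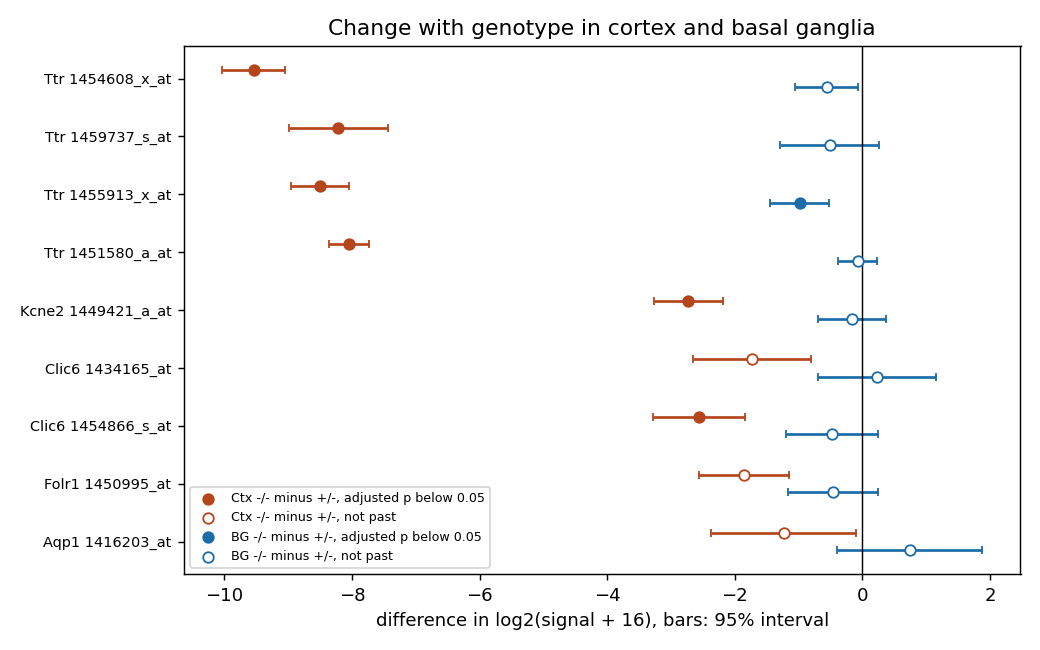
Change with genotype, -/- minus +/-, in log2(signal + 16) for the 9 probe sets tested, in cortex (red) and basal ganglia (blue). Points are group differences over 2 arrays each, bars are 95% intervals from limma, and filled points have an adjusted p below 0.05. The cortical values run from -9.54 to -1.23 and the basal ganglia values from -0.98 to 0.74.

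The test of whether the genotype change differed between the regions passed for Ttr and, near the threshold, for Kcne2. Subtracting the Ctx change from the BG change on the log2 scale gave 8.98 ± 0.29 for Ttr 1454608_x_at (limma adjusted p = 0.000269), 7.97 ± 0.19 for 1451580_a_at (5.23e-05), 7.70 ± 0.46 for 1459737_s_at (0.00751) and 7.52 ± 0.27 for 1455913_x_at (0.000364). For Kcne2 it was 2.56 ± 0.32 (limma adjusted p = 0.0378). Of the 9 probe sets, 5 passed with a positive difference, where 0.517% of all probe sets tested did so. All 5 had passed the filter only through Ctx +/-, which favours a positive difference, and nothing is read from the count. The Kcne2 call was lost without the filter (limma adjusted p = 0.0785), with median centring (0.0506) and without either BG +/- array, either BG -/- array or either Ctx -/- array, with limma adjusted p of 0.113 to 0.175, and the count of 5 fell to 3 without any 1 of the BG -/-, Ctx +/- or Ctx -/- arrays. Ttr 1459737_s_at was the probe set lost without Ctx +/- replicate 2 or 3 (limma adjusted p = 0.096 and 0.0627), BG -/- replicate 2 or 3 (0.0791 and 0.069) or Ctx -/- replicate 2 or 3 (0.086 and 0.0807). On the other 3 Ttr probe sets the difference lay between 7.30 and 9.25 with any array left out. With offset 1 the call was lost on Ttr 1459737_s_at (limma adjusted p = 0.0577) and on 1455913_x_at (0.0657).

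Between the regions, 7 of 9 probe sets were lower in BG +/- than in Ctx +/-, where 12.8% of all probe sets tested were called lower. The 7 are the ones that passed the filter only through their Ctx +/- signals, so nothing is read from that count. Without the filter, 6 of the 12 were called lower in BG +/- and 1 higher, Kl 1451892_at at 1.33 ± 0.15 (limma adjusted p = 0.00404). Of all 45037 probe sets, 6035 were called in that setting in either direction. The 7 called with the filter were the 4 of Ttr, at -8.24 to -7.65, Kcne2 at -2.63 ± 0.23 (limma adjusted p = 0.000935), Clic6 1454866_s_at at -2.35 ± 0.30 (0.00337) and Aqp1 at -1.87 ± 0.48 (0.033). The Aqp1 call was lost without either BG +/- array, Ctx +/- replicate 3 or either Ctx -/- array, where the difference lay between -2.16 and -1.86. Without Ctx +/- replicate 2 Aqp1 fell under the filter and had no test. Its call was also lost with no filter (limma adjusted p = 0.0505) and with offset 1 (0.0634). Folr1, at -0.87 ± 0.30 (limma adjusted p = 0.0754), and Clic6 1434165_at, at -0.81 ± 0.39 (0.171), did not pass. Folr1 passed without Ctx -/- replicate 2 or 3 (limma adjusted p = 0.0414 in each case). This comparison, the cortical one and the difference between them share the 2 Ctx +/- arrays, so they are not separate evidence.

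Between BG -/- and Ctx -/-, none of the 9 probe sets passed in limma, where 17.2% of all probe sets tested were called in either direction. Of the 9, 7 had a mean in the 6 arrays other than Ctx +/- below the level the filter would set there, so the 0 is not comparable with that share. At an unadjusted p under 0.05 there were 2, Ttr 1454608_x_at at 0.74 ± 0.21 and Clic6 1434165_at at 1.15 ± 0.39 (limma adjusted p = 0.0544 and 0.0865), both higher in BG. By the brightest probe set of each gene, 36.6% of all genes tested had such a p, and nothing is read from the 2. Ttr 1454608_x_at passed without BG +/- replicate 2 or 3 (limma adjusted p = 0.0361 and 0.036), and Clic6 1434165_at passed without Ctx -/- replicate 2 (0.0256). The 95% interval was -0.61 to 0.47 for Kcne2 and -0.19 to 1.22 for Folr1.

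A further list, also chosen with earlier results of these data known, held other genes of choroid plexus epithelium. Of these, 34 had a probe set and 23 were tested. In limma none of them passed in the cortical comparison, with 10 at an unadjusted p under 0.05, and 20 of 23 were lower in -/-, where 8.6% of all genes tested had such a p and 56.1% were lower. The median was -0.32, against -0.03 over all genes tested. Calml4, a calmodulin-like gene, was at 112 and 68.7 in Ctx +/-, at 10.7 and 6.60 in Ctx -/- and between 0.955 and 12.1 in the 4 BG arrays. It had the largest cortical difference of the list, -2.09 ± 0.28, which did not pass (limma adjusted p = 0.0609) but did with each array centred on its median (-2.02, limma adjusted p = 0.027). BG +/- minus Ctx +/- was -2.15 ± 0.28 for it (log2 scale, limma adjusted p = 0.00337). Sostdc1, a secreted antagonist of BMP and Wnt signals, was at 77.6 and 45.2 in Ctx +/-, at 14.7 and 11.4 in Ctx -/- and between 32.8 and 61.2 in BG, with a cortical difference of -1.39 ± 0.26 (limma adjusted p = 0.17). Vat1l was at 184 and 129 in Ctx +/- against 48.4 and 63.3 in Ctx -/- (-1.25 ± 0.19, limma adjusted p = 0.0911), and was higher in BG, at 344 to 379.

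Otx2, a homeobox transcription factor of the choroid plexus and of the diencephalon, had genotype differences of opposite sign in the regions. It was at 66.9 and 55.6 in Ctx +/- and at 13.6 and 11.95 in Ctx -/-. The BG +/- arrays gave 13.3 and 34.9 and the BG -/- arrays 95.4 and 71.2. In BG it rose by 1.35 ± 0.27 (limma adjusted p = 0.0284), and the cortical difference of -1.42 ± 0.27 did not pass (0.176). The difference between the 2 changes was 2.77 ± 0.38 (limma adjusted p = 0.046), and without any 1 of the 8 arrays it lay between 2.37 and 3.17 and did not pass (0.0713 to 0.186). In the same arrays 2 of 7 genes of the diencephalon list were called higher in BG -/-, and the summed signal of that list was 570 to 618 in BG +/- and 931 to 995 in BG -/-, whose part in the Otx2 rise was not tested. The BG call of Otx2 was lost without BG +/- replicate 2 (limma adjusted p = 0.0833), BG -/- replicate 2 or 3 (0.143 and 0.095) or Ctx -/- replicate 2 or 3 (0.0599 and 0.06). In BG, 1 gene of the list rose, Otx2, and 1 fell, the nucleoside transporter gene Slc29a4, named after its value was seen, where 4.76% of genes were called higher and 3.05% lower. Over all genes, 0.272% passed with a positive difference between the regional changes, and Otx2 was the 1 gene of this list. Between the regions in +/-, 5 genes were lower in BG and 2 higher, where 10.7% of genes were called lower and 14% higher. The lower ones were Calml4, Otx2, Ecrg4, Car14 and Igfbp2 and the higher ones Vat1l and Slc12a2, of which Ecrg4, Car14, Igfbp2 and Slc12a2 were named after their values were seen.

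The cortical hem and roof plate list marks the tissue that borders the choroid plexus. In limma none of 12 genes tested passed in the cortical comparison, with 2 at an unadjusted p under 0.05, a median of -0.26 and a range from -0.60 to 0.46. Over all genes tested, 8.6% had an unadjusted p under 0.05. Rspo3, an R-spondin that strengthens Wnt signals, was at 239 and 409 in Ctx +/- and at 449 and 426 in Ctx -/-, against 39.1 to 55.1 in the 4 BG arrays. BG minus Ctx was -2.31 ± 0.24 in +/- (log2 scale, limma adjusted p = 0.00155) and -2.99 ± 0.24 in -/- (0.000724). Wnt8b, a Wnt ligand of the medial cortex, was at 60.8 and 62.5 in Ctx +/-, at 31.2 and 39.8 in Ctx -/- and at 5.55 to 27.8 in BG. Its cortical difference was -0.60 ± 0.23 (limma adjusted p = 0.479). In all, 5 genes of this list were lower in BG +/- than in Ctx +/-, and 1 was higher, Wls at 0.70 ± 0.16 (limma adjusted p = 0.0214), where 10.7% of genes were called lower and 14% higher. There were 4 lower in BG -/- than in Ctx -/-, where 7.25% of genes were called lower and 11.4% higher. Wls, the carrier that Wnt proteins need for secretion, fell in BG -/- by 0.84 ± 0.16 (limma adjusted p = 0.0241), a call lost without any 1 of the BG arrays (0.0837 to 0.129). Axin2, a target of Wnt signals, was at -0.55 ± 0.15 for BG +/- minus Ctx +/- (limma adjusted p = 0.0424), and with the mean of its probe sets the difference was -0.05.

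Genes of motile cilia and ependyma, which choroid plexus epithelium shares in part, gave no limma call among 16 tested in the cortical comparison. At an unadjusted p under 0.05 there were 7, where 8.6% of all genes tested had such a p. The median was -0.36 and the range from -1.57 to 0.77. In BG 3 rose and 1 fell, where 4.76% of genes were called higher and 3.05% lower. Rfx3, a transcription factor of ciliated cells, gave 372 and 373 in BG +/- against 671 and 650 in BG -/-. This rise of 0.80 ± 0.12 passed (limma adjusted p = 0.0133), but the call was lost without any 1 of the BG arrays. With the mean of its probe sets the rise was 0.37 ± 0.18 and did not pass (limma adjusted p = 0.226). The others were Ccdc39 and Foxj1, which rose, and Mlf1, which fell, all named after their values were seen. Dynlrb2, a dynein light chain gene, was at 43.2 and 58.4 in Ctx +/-, at 10.3 and 12.8 in Ctx -/- and at 24.4 to 59.2 in BG. Its cortical difference of -1.27 ± 0.21 did not pass (limma adjusted p = 0.126), nor did those of Tekt1 at -0.58 ± 0.13 (0.245) and Lrrc23 at -0.73 ± 0.17 (0.252).

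**Figure D3:**
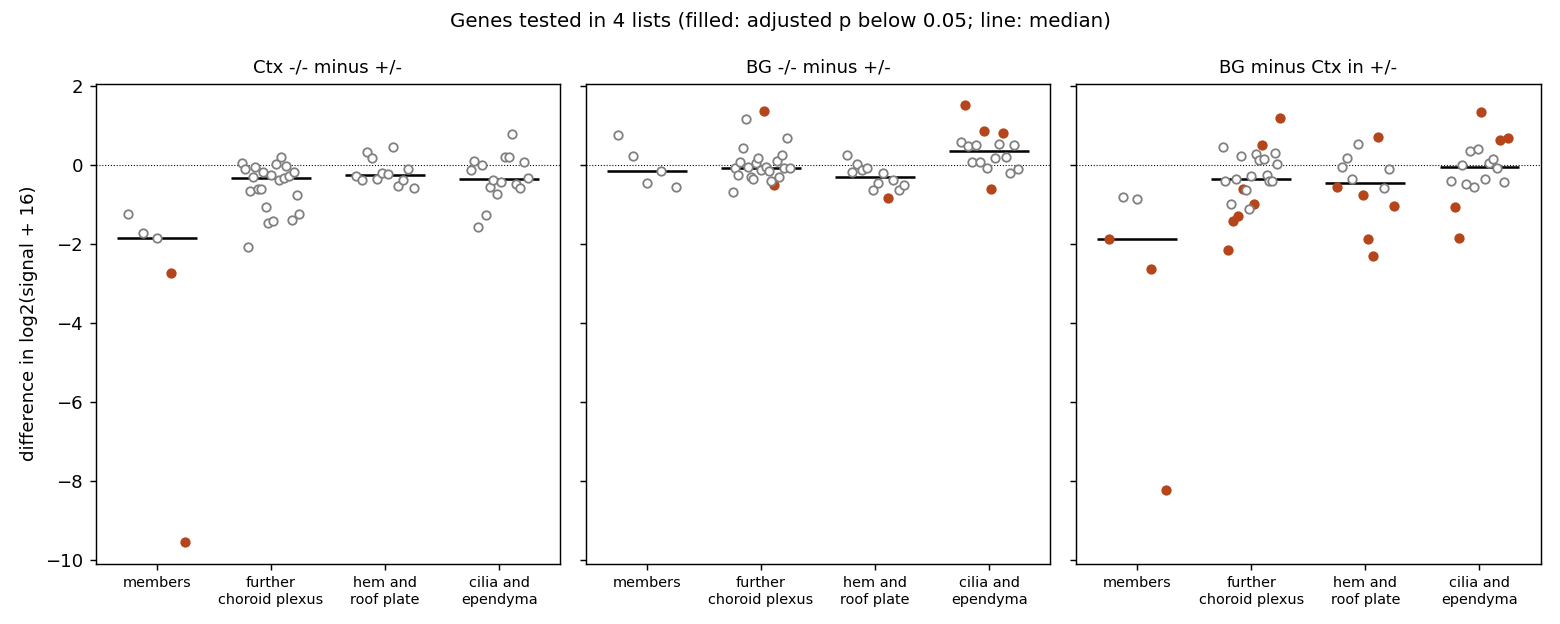
Differences in log2(signal + 16) for the genes tested of 4 lists, each gene by its brightest probe set, for genotype in cortex (left), genotype in basal ganglia (middle) and region in +/- (right). Filled points have a limma adjusted p below 0.05 and lines are list medians. In cortex the 5 members tested lie at -1.23 or below, and the hem genes tested lie between -0.60 and 0.46. Ttr, Kcne2 and Aqp1 passed the filter only through their Ctx +/- signals, and Kl and Slc4a5 are not shown, so the lists are not compared.

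Markers of other tissues were counted in the same way, since a source label of all samples names blood and adrenal medulla beside the brain region. In the cortical comparison none passed of 8 meninges and fibroblast, 7 endothelium and pericyte, 5 red blood cell, 6 adrenal medulla, 7 telencephalon or 7 diencephalon genes, with medians of -0.30, -0.19, -0.40, -0.05, 0.00 and 0.04. At an unadjusted p under 0.05 limma gave 2, 0, 1, 0, 1 and 0 genes of these lists, where 8.6% of all genes tested had such a p. The summed signal of the red blood cell list was 2075 to 2319 in Ctx +/- and 1470 to 1675 in Ctx -/-, and 6070 to 6394 in BG +/- against 3193 to 3336 in BG -/-. That of the meninges list was 718 to 786 in Ctx +/- and 710 to 763 in Ctx -/-. Liver also makes transthyretin: of its 9 genes with a probe set 1 was tested, and their summed signal was 43.9 to 84.1 in Ctx +/- and 49.4 to 95.8 in Ctx -/-. Its defining gene Alb was at 9.79 and 16.9 in Ctx +/-. Retinal pigment epithelium, which also makes transthyretin, had 2 of 8 genes tested, neither called in cortex, and its defining gene Rpe65 was at 2.76 and 1.83 in Ctx +/-. The summed signal of that list was 946 to 998 in Ctx +/- and 962 to 974 in Ctx -/-. The telencephalon list summed to 8910 to 10452 in Ctx +/- and 9072 to 9162 in Ctx -/-, with 7 of 7 genes tested. The part of red blood cells in the member differences was not tested.

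The pattern of Ttr over the 8 arrays was compared with that of 1936 other genes whose log2 values spanned at least 1.5. Such a correlation is a description over arrays that share group, region and genotype. The 10 genes with the highest Pearson r (n = 8 arrays) were Calml4 at 0.948, Nkx2-9 at 0.936, Sulf1 at 0.882, Cfap126 at 0.849, Cmtm8 at 0.822, Krt18 at 0.809, Uty at 0.802, Ecrg4 at 0.766, Nxph2 at 0.749 and Clmp at 0.741. Calml4, Krt18 and Ecrg4 were on the choroid plexus list and Cfap126 was on the cilia list. Krt18, a keratin gene of simple epithelia, was at 89.9 and 46.2 in Ctx +/-, at 12.9 and 13.6 in Ctx -/- and at 13.4 to 41.0 in BG. Sulf1, a heparan sulfate endosulfatase gene, was at 91.9 and 90.0 in Ctx +/-, at 5.10 and 22.4 in Ctx -/- and at 18.6 to 37.7 in BG. Uty, on chromosome Y, was at 218 and 155 in Ctx +/-, at 1.60 and 12.6 in Ctx -/-, while BG +/- gave 80.3 and 83.0 and BG -/- gave 1.42 and 1.18. Among the members, r with Ttr was 0.980 for Kcne2, 0.857 for Folr1, 0.715 for Aqp1, 0.690 for Clic6, 0.0101 for Slc4a5 and -0.380 for Kl.

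**Figure D4:**
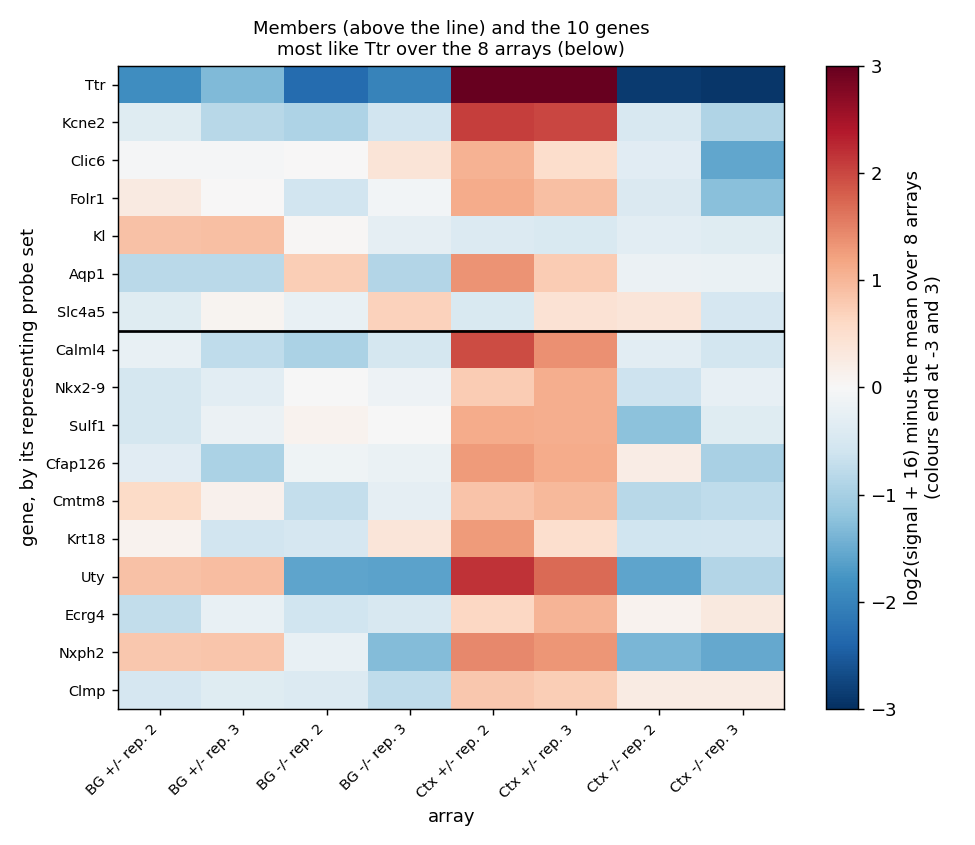
Level of each gene in each array, as log2(signal + 16) minus the gene's mean over the 8 arrays, for the 7 members with a probe set (above the line) and the 10 genes most like Ttr (below it). Colours end at -3 and 3. The 2 Ctx +/- columns are the high ones for Ttr and Kcne2, and Kl is highest in the 2 BG +/- columns.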

How the data were processed

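The authors deposited 1 table of intensity values, a summarised signal per probe set, for 45101 probe sets and 8 arrays. Trimmed means of the 8 arrays were equal, at 150.0, so the values had been scaled. The scaling software is not given in the sources used here. After 64 controls were left out, 34945 probe sets had 1 gene symbol, 932 several and 9160 none. Signals were analysed as log2(signal + 16), with the lowest 30% by mean dropped. A model of 4 group means was fitted to all 8 arrays in limma 3.58.1 under R 4.3.3 (4 residual and 2.76 prior degrees of freedom), with two-sided tests adjusted by Benjamini-Hochberg. The fit was checked on simulated arrays. A gene is represented by its probe set with the highest mean. All probe sets of the 8 members are given. Of the choroid plexus, hem and cilia lists, genes past the threshold in any comparison are named, up to 4 with the smallest p in cortex, and of the lists for other tissues only counts, sums and defining genes. The likeness rule takes the 10 highest r. The members and lists were chosen with earlier results of these data known. Alternatives were offsets 1 and 64, no filter, quantile normalization, median centring, only the arrays compared, a replicate block, the mean of a gene's probe sets and leaving out each array.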

Additional observations from a re-analysis of the deposited data

Results flagged for a closer look

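For 6 probe sets the change with genotype differed between basal ganglia and cortex by a test of that difference. Subtracting the Ctx change from the BG change gave 8.98 on Ttr 1454608_x_at, 7.70 on Ttr 1459737_s_at, 7.52 on Ttr 1455913_x_at, 7.97 on Ttr 1451580_a_at, 2.56 on Kcne2 and 2.77 on Otx2. The Ttr and Kcne2 probe sets had passed the filter on low signals only through Ctx +/-, which favours a positive difference. With offset 1 the test did not pass on Ttr 1459737_s_at (limma adjusted p = 0.0577) or 1455913_x_at (0.0657). The Kcne2 test did not pass without the filter on low signals (limma adjusted p = 0.0785), with median centring (0.0506) or with a replicate block (0.0872). It also did not pass without any 1 of the BG or Ctx -/- arrays, and without either Ctx +/- array or with offset 1 there was no test. The Otx2 test did not pass without the filter (limma adjusted p = 0.0887), with offset 1 (0.0826), quantile normalization (0.0502), median centring (0.0548) or a replicate block (0.0973). It also did not pass without any 1 of the 8 arrays. With 2 arrays in each group, no group could be examined for a single array far from the rest.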

How the results depend on the processing

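The count of member probe sets called in cortex, 6, was 4 to 7 under all alternatives and 4 to 6 with 1 array left out. In BG the count of 1 became 0 with offset 1, offset 64 or quantile normalization, and the call was lost without any 1 of the BG arrays. Without the filter the count stayed at 1, but Ttr 1455913_x_at did not pass (limma adjusted p = 0.0512) and Kl 1451892_at did (0.0249). For the difference between regions the count of 5 became 2 with offset 1 and 7 with offset 64, and 3 to 4 with 1 array left out. For BG against Ctx in +/- the 7 became 4 with offset 1, 9 with offset 64, and 8 with median centring or the 4 arrays compared, and 5 to 7 with 1 array left out. In -/- the 0 became 1 with offset 1, offset 64 or the 4 arrays of the comparison, and 0 to 1 with 1 array left out. The causes were not tested. No sign of a member reversed in the cortical comparison, in the difference between regions or in BG against Ctx in +/-.

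Some values changed sign, none of them past the threshold in the main setting. In BG, Clic6 1434165_at became -0.12 with the mean of its probe sets. With 1 array left out, Ttr 1459737_s_at ranged from -1.05 to 0.023, Kcne2 from -0.40 to 0.066 and Aqp1 from -0.059 to 1.55. For BG against Ctx in -/-, Ttr 1451580_a_at became -0.10 with quantile normalization and -0.24 with median centring, and Aqp1 became -0.16 and -0.17 with these and -0.21 with offset 1. With 1 array left out, Ttr 1455913_x_at ranged from -0.34 to 0.088, Ttr 1451580_a_at from -0.021 to 0.11, Kcne2 from -0.29 to 0.15, Clic6 1454866_s_at from -0.66 to 0.12 and Aqp1 from -0.69 to 0.92.

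Same-numbered arrays of different groups did not deviate together (r of -0.0262 to 0.0218 across probe sets). The deviations also hold the noise of each array, so this check cannot decide whether the numbers pair the arrays. With a replicate block the counts were 5 in cortex, 1 in BG, 4 for the difference, 7 for BG against Ctx in +/- and 1 in -/-. Probe sets called over the whole table moved more: 71 in cortex ranged from 19 to 146, 3070 in BG from 112 to 4969, 181 for the difference from 3 to 907, 7518 between regions in +/- from 3466 to 9175 and 5438 in -/- from 1871 to 7377. Median centring moved the median of all probe sets from 0.05 to -0.11 for the difference and from 0.08 to -0.21 for the regions in -/-. Signals near or below 16 limit what can be said of Kl and Slc4a5.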
